A study of Homo sapiens with 18 samples.

Results

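The histone genes were taken as every probe set of the array whose single platform gene symbol starts with one of the prefixes of the histone clusters and linker histones (H1-, H2AC, H2BC, H3C, H4C and the older HIST1H to HIST4H, H2AF and H3F). This rule used no measured value and found 50 of the 19775 genes that a probe set names alone, with 58 of 54675 probe sets. By the first letters of their symbols, 14 probe sets (11 genes) belonged to H1, 11 probe sets (9 genes) to H2A, 15 probe sets (14 genes) to H2B, 8 probe sets (7 genes) to H3 and 10 probe sets (9 genes) to H4. The platform annotation carries the current symbols, so no probe set matched H2AF or H3F, and the replication-independent variants (H2AZ1, H3-3A and others) were described apart from the 58. Of the 50 genes, 42 lie on chromosome 6 between bases 25726777 and 27893891 of GRCh38.p14, which is the histone gene cluster of that chromosome. In that annotation 4 of the genes are not protein coding: H1-9P, H4C10P and H2AC5P are pseudogenes, and H1-10-AS1 is a long non-coding RNA antisense to H1-10. Another 20 probe sets name a histone gene together with other genes and were left out.

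RNA was measured in A549 cells, a line from a human lung carcinoma, grown as air-liquid interface (ALI) cultures with their upper surface open to the gas. In each of 9 experiments ALI cultures spent 72 h in the exposure chamber and others, in parallel, in the reference chamber, where humidified air carried no formaldehyde. Exposure-chamber concentrations were 0, 0.1 and 0.5 ppm, with 3 experiments for each, so that every concentration has 3 exposure-chamber arrays and 3 reference-chamber arrays of the same experiments (18 arrays in all). The 0 ppm groups test the chambers alone, since neither of them held formaldehyde, and all groups are 1 tumour-derived line without the other cells of an airway.

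Histones are the proteins that DNA is wound on. Pairs of H2A, H2B, H3 and H4 form the core of the nucleosome, and the linker histone H1 binds where DNA enters and leaves it. Most histone genes are replication-dependent: they lack introns, are transcribed mainly in S phase, when newly made DNA needs histones, and their messages end in a stem-loop and not in a poly(A) tail. Some of them, among them H1-2, H2AC6, H2BC5, H2BC12 and H2BC21, have also been described as polyadenylated RNA in differentiating or arrested cells. The RNA was labelled here with a kit that amplifies from the 3' end, and how far it copies RNA without a poly(A) tail is not given in the sources used here. A signal is the brightness of a probe set and was not used to rank the amounts of different genes, and in RNA of whole cultures fewer cells with a message cannot be told apart from less of it per cell.

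The upstream sequences of the histone genes differ by type in the motifs they hold. The promoters were read from RefSeq (GRCh38.p14), with 43 of the 50 genes matched and the 250 bases before each start searched on both strands. The octamer ATTTGCAT, which POU-domain factors such as OCT1 bind in H2B promoters, was found in 10 of 13 H2B genes (76.9%) and 6 of 8 H2A genes (75%), in 0 of 9 H1, 0 of 6 H3 and 0 of 7 H4 genes, and in 1.63% of 35116 promoters of all genes. H2A and H2B genes often stand head to head and share 1 promoter, so that 1 octamer can be counted for both. The motif AAACACA of H1 promoters was found in 7 of 9 H1 genes (77.8%) and in 4.82% of all promoters, and in 0 of 8 H2A, 0 of 13 H2B, 0 of 6 H3 and 0 of 7 H4 genes. The pentamer CCAAT was found in 37 of 43 genes (86%), against 32% of all promoters, and TATAAA in 28 of 43 (65.1%), against 10.7%. The 150 bases before the start are shown for 6 genes with bright probe sets, with all these motifs of either strand in capitals, and H2BC5 is included as an H2B gene without the octamer. They lie at chr6:27146859-27147008 (minus strand, H2BC12), chr1:149886683-149886832 (minus, H2BC21), chr6:26183611-26183760 (plus, H2BC6), chr6:26157971-26158120 (plus, H2BC5), chr6:26124022-26124171 (plus, H2AC6) and chr6:26056471-26056620 (minus, H1-2).
H2BC12: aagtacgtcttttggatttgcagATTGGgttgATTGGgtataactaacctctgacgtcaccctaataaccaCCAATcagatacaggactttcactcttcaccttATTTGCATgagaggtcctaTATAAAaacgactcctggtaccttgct
H2BC21: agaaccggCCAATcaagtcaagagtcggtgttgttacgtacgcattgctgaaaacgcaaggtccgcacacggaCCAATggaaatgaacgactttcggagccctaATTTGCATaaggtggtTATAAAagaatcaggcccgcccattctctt
H2BC6: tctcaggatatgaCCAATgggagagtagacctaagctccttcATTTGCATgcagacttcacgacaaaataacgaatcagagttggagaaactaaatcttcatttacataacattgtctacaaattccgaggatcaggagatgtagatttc
H2BC5: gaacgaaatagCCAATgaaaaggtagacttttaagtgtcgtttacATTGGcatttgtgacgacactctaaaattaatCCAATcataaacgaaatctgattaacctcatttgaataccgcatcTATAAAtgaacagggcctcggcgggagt
H2AC6: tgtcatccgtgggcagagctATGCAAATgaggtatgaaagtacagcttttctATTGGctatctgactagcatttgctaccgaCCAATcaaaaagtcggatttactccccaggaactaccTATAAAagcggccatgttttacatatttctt
H1-2: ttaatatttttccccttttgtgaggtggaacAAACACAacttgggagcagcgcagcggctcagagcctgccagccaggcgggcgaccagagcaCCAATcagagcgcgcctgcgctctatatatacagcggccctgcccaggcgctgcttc
In H2BC12 and H2BC21 the octamer starts 46 bases before the transcription start, in H2BC6 108 bases before it, and in H2AC6 it lies on the other strand, 130 bases before. A match of letters is a description of these windows and not a measured binding site.

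A bright probe set is here one whose mean log2 signal over the 18 arrays lay above the median of all probe sets, 4.78 on the log2 scale or a signal of 27.5. Of the 58 histone probe sets 21 (36.2%; 18 genes) were bright, and the other 37 were dim. Among the bright probe sets were 8 of the 15 of H2B, 5 of 11 of H2A, 4 of 14 of H1, 3 of 10 of H4 and 1 of 8 of H3. The spread of replicates differed between the classes: the SD within groups had a median of 0.33 log2 over the bright histone probe sets, between 0.10 for H2BC12 and 0.85 for H1-4, and a median of 1.36 over the dim ones, with 0.41 and 1.28 over all bright and all dim probe sets. Of the 21 bright probe sets 8 carry the suffix x_at and 4 the suffix s_at, which Affymetrix gives to probe sets that can bind several near-identical transcripts, so that copies of a histone gene cannot be told apart there. The genes H2BC5, H2AC25, H4C8, H3C6, H2AC15, H1-6 and H1-7 had several probe sets; for H3C6 they disagreed in brightness, with mean log2 signals of 9.64 and 2.84.

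The cultures carried the markers of their label: all 10 markers of A549 cells and epithelium were bright. Of the markers of other cell types, PTPRC and CD3E of leukocytes, CDH5 and VWF of endothelium and COL1A2, DCN and LUM of fibroblasts were dim, while LYZ, CD14, PECAM1 and COL1A1 were bright. The 5' actin control, a common check of RNA integrity, was lowest on 2 reference-chamber arrays: 5.90 (log2) in replicate 1 at 0.1 ppm and 6.85 in replicate 3 at 0 ppm. The remaining 16 arrays spanned 7.75 to 9.70. The 5' GAPDH control was not low on these 2 arrays but highest, at 14.67 and 14.61, against at most 14.31 on the others. Counts between the chambers are given with and without the 2 arrays of low 5' actin. Of the markers of other cell types that passed an unadjusted p under 0.05 in limma, PTPRC was higher at 0.5 ppm than in the reference chamber (log2 difference 2.63, adjusted p = 0.868), and COL1A2 and LUM were higher at 0.1 ppm than in the reference chamber (1.98 and 3.09, adjusted p = 0.998 for both). COL1A2 was also higher at 0.1 than at 0 ppm in the exposure chamber (0.85), and the chamber difference of PTPRC was higher at 0.5 than at 0 ppm (3.57, adjusted p = 1.00 for both). The summed signal of the 4 leukocyte markers was 3019 to 5072 at 0.5 ppm, against 2902 to 5055 in the reference chamber, and that of the 4 fibroblast markers 253 to 367 at 0.1 ppm, against 234 to 350.3 in the reference chamber. These sums rest mostly on LYZ (mean log2 signal 11.76) and COL1A1 (8.16). PTPRC, COL1A2 and LUM had means of 1.77, 2.61 and 1.60, so a change in them could hardly show in the sums. The part of other cell types in the histone signals was not tested.

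Between the chambers at 0 ppm, 2 of 58 histone probe sets had an unadjusted p under 0.05 in limma, the threshold of the study's methods, against 4.84% of all probe sets. Both had lower signals in the exposure chamber, where 2.92% of all probe sets were lower at this threshold. H2BC1, a testis-specific H2B, had log2 signals of -2.40, -1.04 and -1.54 in the exposure chamber, against -0.16, 1.96 and 0.60 in the reference chamber. The groups do not overlap, and the log2 difference was -2.46 (SE 0.65, adjusted p = 0.766 in limma). With 32 added to each signal it was -0.076 and did not pass, nor did H2BC1 pass with all groups in 1 fit. H1-8, the linker histone of oocytes, had log2 signals of 0.62, 1.66 and 4.99 in the exposure chamber, against 4.65, 5.24 and 5.90 in the reference chamber. Here replicate 3 of the exposure chamber lies within the range of the reference chamber, and the difference was -2.84 (SE 1.15, adjusted p = 0.880). Both probe sets were dim on average. With the experiment as a replicate block, H4C5 (log2 difference -1.14), an H4 gene, and H3C3 (-1.18), an H3 gene, passed as well, which made 4. Without reference-chamber replicate 3, the array of low actin signal, H2BC1 and H4C5 passed, and H1-8 did not.

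With 0.1 ppm in the exposure chamber, 1 histone probe set passed against the reference chamber of the same experiments, against 4% of all probe sets and 2.46% with a lower signal. H4C13, one of the genes for the common H4 protein, had log2 signals of 2.86, 4.03 and 3.54 at 0.1 ppm, against 4.41, 4.50 and 4.64 in the reference chamber. All 3 exposed cultures were lower than all 3 of the reference chamber, with a log2 difference of -1.04 (SE 0.42, adjusted p = 0.998 in limma), and H4C13 did not pass with the replicate block. Without reference-chamber replicate 1, the array of low actin signal, it did not pass either, and 3 other probe sets did: H2BC9 and H3C1 with lower signals (log2 differences -0.93 and -2.82) and the second probe set of H1-6 with higher ones (3.39). These were named after their values were seen. H4C13 also did not pass with a trend in eBayes or with all groups in 1 fit.

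With 0.5 ppm, 4 histone probe sets passed, against 3.92% of all probe sets and 2.26% with a lower signal, all with lower signals at 0.5 ppm and with groups that do not overlap. Of these, H3C8 and H3C2 encode H3.1, the H3 that is loaded on newly made DNA. H3C8 had log2 signals of 0.99, 0.87 and 0.93 at 0.5 ppm, against 1.96, 1.71 and 1.49 in the reference chamber (log2 difference -0.79, SE 0.24). H3C2 had 3.14, 3.08 and 0.86 at 0.5 ppm, against 4.19, 4.79 and 3.56 in the reference chamber (log2 difference -1.82, SE 0.73). Replicate 3 at 0.5 ppm was the lowest culture for H3C2. The testis-specific linker histone H1-6 had 3.21, 2.21 and 3.28 at 0.5 ppm, against 3.88, 4.04 and 3.61 in the reference chamber (log2 difference -0.95, SE 0.37). The pseudogene H1-9P had 2.03, 3.58 and 3.46 at 0.5 ppm, against 4.21, 4.17 and 4.27 in the reference chamber (log2 difference -1.19, SE 0.47). The lowest adjusted p among the histone probe sets was 1.00 in limma. H1-6 and H1-9P did not pass with the replicate block. With 32 added to each signal the difference of H3C8 was -0.059, and H3C8 and H1-6 did not pass. Over all probe sets 1090 then passed lower and 491 higher, against 1237 and 908 without it. H3C8, H1-6 and H1-9P did not pass with a trend in eBayes or with all groups in 1 fit, and H3C2 and H1-9P not after quantile normalization. When reference-chamber replicate 1 was left out 0 passed, and when replicate 3 was left out 1 passed.

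**Figure D1:**
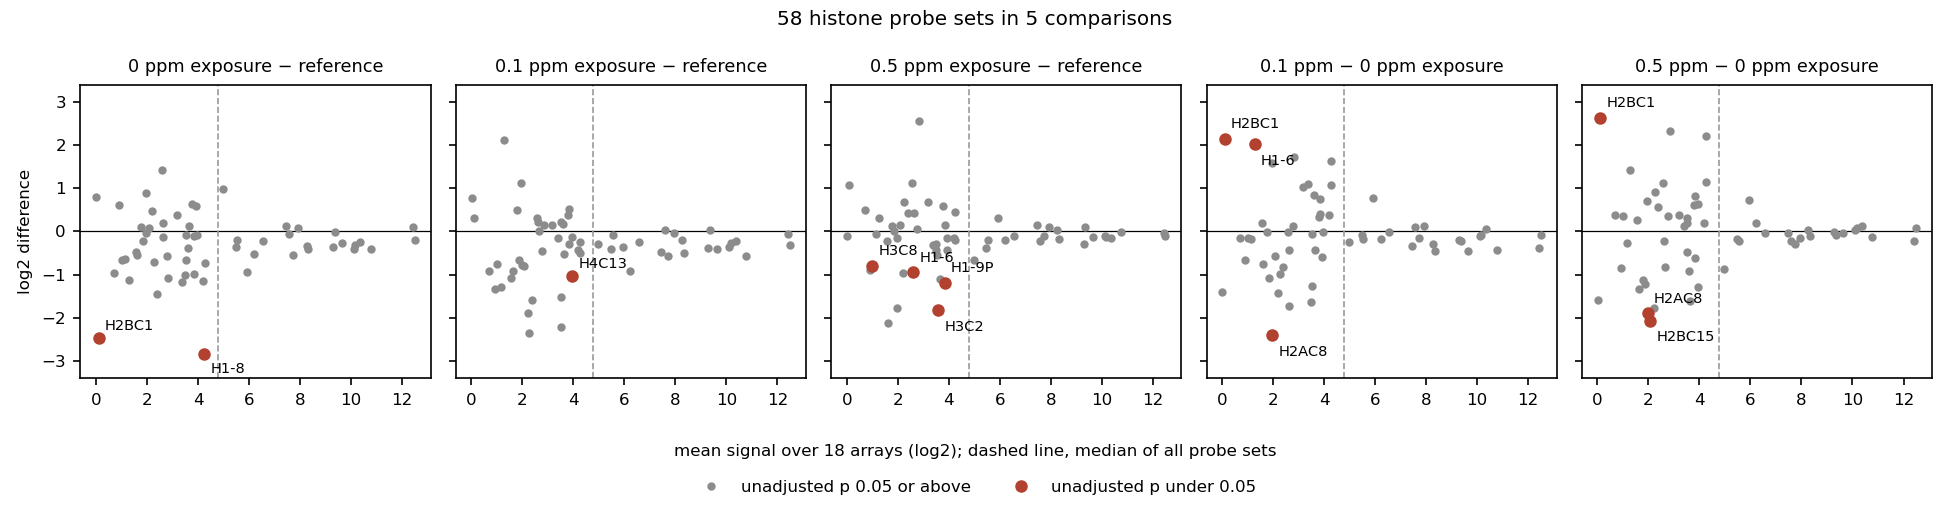
Log2 difference (vertical axis) against mean log2 signal (horizontal axis) of the 58 histone probe sets in 5 comparisons, the group named first minus the group named after it. Points in red passed an unadjusted p under 0.05, and all of them lie left of the dashed line, the median signal of all probe sets (4.78).

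Across doses within the exposure chamber, which compares different experiments, 3 histone probe sets passed between 0.1 and 0 ppm (4.47% of all probe sets), 1 lower and 2 higher, and 3 between 0.5 and 0 ppm (4.56% of all), 2 lower and 1 higher. Since each dose was run in experiments of its own, dose and experiment cannot be told apart here. H2AC8, an H2A gene of the chromosome 6 cluster, had log2 signals of 3.50, 3.85 and 2.84 at 0 ppm, 0.06, 0.75 and 2.20 at 0.1 ppm, and 2.90, 1.47 and 0.13 at 0.5 ppm. Against 0 ppm its log2 difference was -2.39 at 0.1 ppm (SE 0.62, adjusted p = 0.893 in limma), with groups that do not overlap, and -1.90 at 0.5 ppm (SE 0.74, adjusted p = 1.00), with groups that do. In the reference chambers, with no formaldehyde, H2AC8 had 2.24, 3.62 and 1.63 in the 0 ppm experiments, 2.83, 0.53 and 2.02 in the 0.1 ppm experiments, and 2.31, 1.14 and 1.48 in the 0.5 ppm experiments. The change of its chamber difference did not pass at 0.1 ppm (-1.68) or at 0.5 ppm (-1.04).

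H2BC1 was higher with formaldehyde than at 0 ppm in the exposure chamber: its log2 signals were -2.40, -1.04 and -1.54 at 0 ppm, 0.40, -0.66 and 1.71 at 0.1 ppm, and 1.87, -1.15 and 2.19 at 0.5 ppm. The log2 differences were 2.14 (SE 0.70) at 0.1 ppm and 2.63 (SE 0.98) at 0.5 ppm, the second with groups that overlap. These comparisons and the lower H2BC1 between the chambers at 0 ppm share the same 3 exposure-chamber arrays. In the reference chambers H2BC1 had -0.16, 1.96 and 0.60 in the 0 ppm, -0.72, 3.15 and -1.94 in the 0.1 ppm and -0.62, 0.14 and 0.18 in the 0.5 ppm experiments. All its signals are at the dim end of the array, between 0.19 and 8.87 before log2. At 0 ppm their means were 0.34 in the exposure chamber and 2.10 in the reference chamber. With 32 added to each signal the differences of H2BC1 against 0 ppm were 0.060 and 0.11, neither past the threshold.

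The other calls across doses were also of dim probe sets. H2BC15, an H2B gene, had log2 signals of 2.02, -0.40 and 0.76 at 0.5 ppm, against 2.36, 3.06 and 3.14 at 0 ppm (log2 difference -2.06, SE 0.65, adjusted p = 0.995 in limma), and did not pass with 32 added, with a trend in eBayes or with all groups in 1 fit. H2AC8 at 0.5 ppm did not pass with 32 added, with the trend or after quantile normalization. The second probe set of H1-6, outside the rule for named genes and named after its values were seen, had 3.46, 2.14 and 1.51 at 0.1 ppm, against 0.00, 0.99 and 0.05 at 0 ppm (log2 difference 2.02, SE 0.59, adjusted p = 1.00). The brighter probe set of H1-6 did not pass in that comparison.

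Whether the difference between the chambers itself changed with formaldehyde was tested as a contrast of chamber differences. At 0.1 against 0 ppm 0 of 58 histone probe sets passed an unadjusted p under 0.05 in limma (3.21% of all probe sets), also after quantile normalization and with a trend in eBayes. At 0.5 against 0 ppm 1 passed (3.69% of all): the chamber difference of H2BC1 was 1.07 at 0.5 ppm, against -2.46 at 0 ppm, a contrast of 3.53 (SE 1.22, adjusted p = 1.00). With the replicate block the counts were 2 at 0.1 ppm, H1-8 (2.59) and the second probe set of H1-6 (3.25), and 3 at 0.5 ppm, H2BC1, H1-8 (2.65) and H4C5 (1.00). These contrasts share the 0 ppm arrays.

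**Figure D2:**
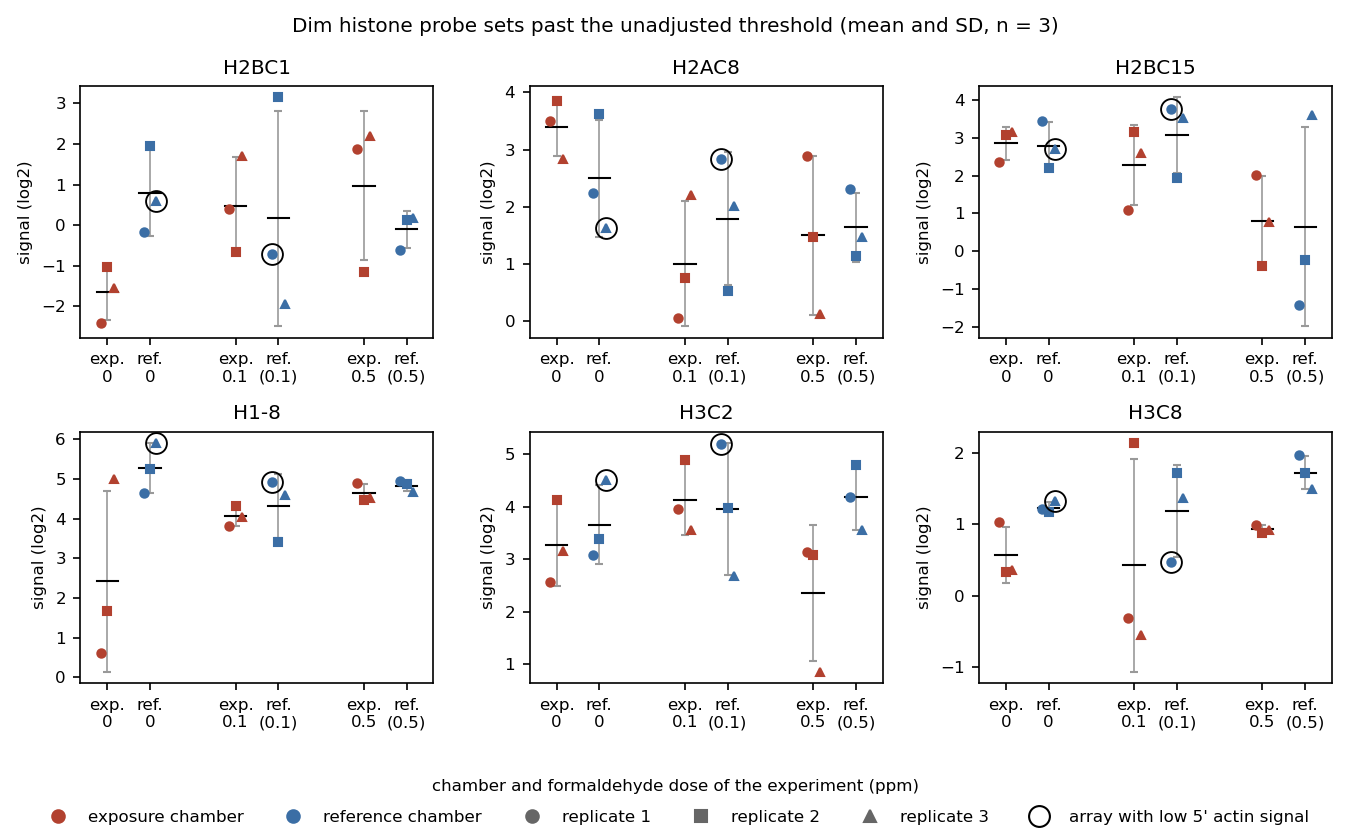
Log2 signal on each array (vertical axis, scale differs between panels) of 6 dim histone genes past the unadjusted threshold, by chamber and dose (horizontal axis; exposure chamber in red left of its reference chamber in blue; line and bars, mean and SD of 3 arrays). The mean of H2BC1 is lowest in the 0 ppm exposure chamber, and H3C8 at 0.5 ppm lies below its 3 reference-chamber arrays.

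Of the 21 bright histone probe sets 0 had an unadjusted p under 0.05 in limma in any of the 7 comparisons, and 0 of 58 passed after adjustment over all probe sets, as did 0 of all 54675. Of all bright probe sets 1.09%, 0.355% and 0.578% passed between the chambers at 0, 0.1 and 0.5 ppm, 1.08% and 1.13% for 0.1 and 0.5 against 0 ppm, and 0.329% and 0.754% for the contrasts of chamber differences. This count of 0 depends on the setting. With 32 added to each signal H2BC12, H3C6, H4C8, H2BC6 and H2AC17 passed lower at 0.1 ppm between the chambers. In that setting H2BC12L and H2AC17 passed lower at 0 ppm, and H3C6 lower at 0.1 against 0 ppm. Of all 54675 probe sets 1025 then passed lower and 518 higher at 0.1 ppm between the chambers. At 0 ppm these counts were 1696 and 917, and for 0.1 against 0 ppm 1438 and 883. With bright probe sets tested alone, and with all 6 groups in 1 fit, H2AC17 passed lower at 0.1 ppm between the chambers, and with a trend in eBayes H3C6 at 0.1 against 0 ppm. When single arrays were left out, H2AC17, H2BC9, H1-3 and H1-4 passed in some comparisons. H2BC6, H2AC17 and H1-4, outside the rule for named genes, were named after their values were seen.

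H2BC12, an H2B gene, was lower in the exposure chamber in every experiment. It had log2 signals of 12.34, 12.33 and 12.51 in the exposure chamber at 0 ppm, against 12.59, 12.61 and 12.59 in the reference chamber. At 0.1 ppm it had 12.42, 12.34 and 12.19, against 12.59, 12.52 and 12.75 in the reference chamber. At 0.5 ppm it had 12.62, 12.36 and 12.42, against 12.67, 12.52 and 12.51 in the reference chamber. The groups do not overlap at 0 and 0.1 ppm, and the differences were -0.20 (SE 0.24), -0.30 (SE 0.33) and -0.10 at 0, 0.1 and 0.5 ppm. Of the 58 histone probe sets this was the 1 that was lower in all 9 experiments, as were 1.37% of all probe sets and 2.33% of the bright ones.

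H2AC6, which encodes an H2A, varied more between experiments than H2BC12. It had log2 signals of 12.24, 12.95 and 12.69 in the exposure chamber at 0 ppm, against 12.53, 12.52 and 12.54 in the reference chamber. At 0.1 ppm it had 11.99, 11.90 and 12.87, against 12.25, 12.005 and 12.68 in the reference chamber. At 0.5 ppm it had 12.70, 11.76 and 12.78, against 12.64, 11.98 and 12.71 in the reference chamber. Both chambers of 0.1 ppm replicate 2 and of 0.5 ppm replicate 2, and the exposure chamber of 0.1 ppm replicate 1, lay at or below 12.005, and the other arrays at 12.24 or above. The exposure chamber was lower in 4 of 9 experiments and higher in 5.

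H1-2, a linker histone of most somatic cells, was highest on both arrays of low actin signal. It had log2 signals of 10.37, 11.12 and 10.88 in the exposure chamber at 0 ppm, against 10.76, 11.09 and 11.71 in the reference chamber. At 0.1 ppm it had 10.34, 9.95 and 10.77, against 11.63, 10.40 and 10.75 in the reference chamber. At 0.5 ppm it had 10.85, 10.17 and 10.98, against 10.81, 10.37 and 10.88 in the reference chamber. The arrays at 11.71 and 11.63 are those of low 5' actin, and H4C11, an H4 gene, was also highest there, at 8.98 and 8.64 against at most 8.04 on the other arrays. The part of RNA quality in these differences was not tested.

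H3C6, the 1 bright H3 probe set, was tightly grouped at 0.1 ppm. It had log2 signals of 9.26, 9.22 and 9.16 at 0.1 ppm in the exposure chamber, against 9.78, 9.34 and 9.77 in the reference chamber (log2 difference -0.41, SE 0.34) and 9.47, 9.59 and 9.94 at 0 ppm in the exposure chamber (log2 difference -0.45, SE 0.23). In neither pair do the groups overlap. H4C8, an H4 gene, had 8.02, 8.44 and 8.57 in the exposure chamber at 0 ppm, against 8.67, 8.93 and 8.64 in the reference chamber, and 8.03, 7.63 and 8.01 at 0.1 ppm, against 8.19, 8.36 and 8.62 in the reference chamber. Its exposure-chamber cultures lay below all reference-chamber cultures at both doses, and at 0.5 ppm the groups overlapped, with 8.84, 7.66 and 8.18 in the exposure chamber against 8.61, 8.003 and 8.56 in the reference chamber.

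**Figure D3:**
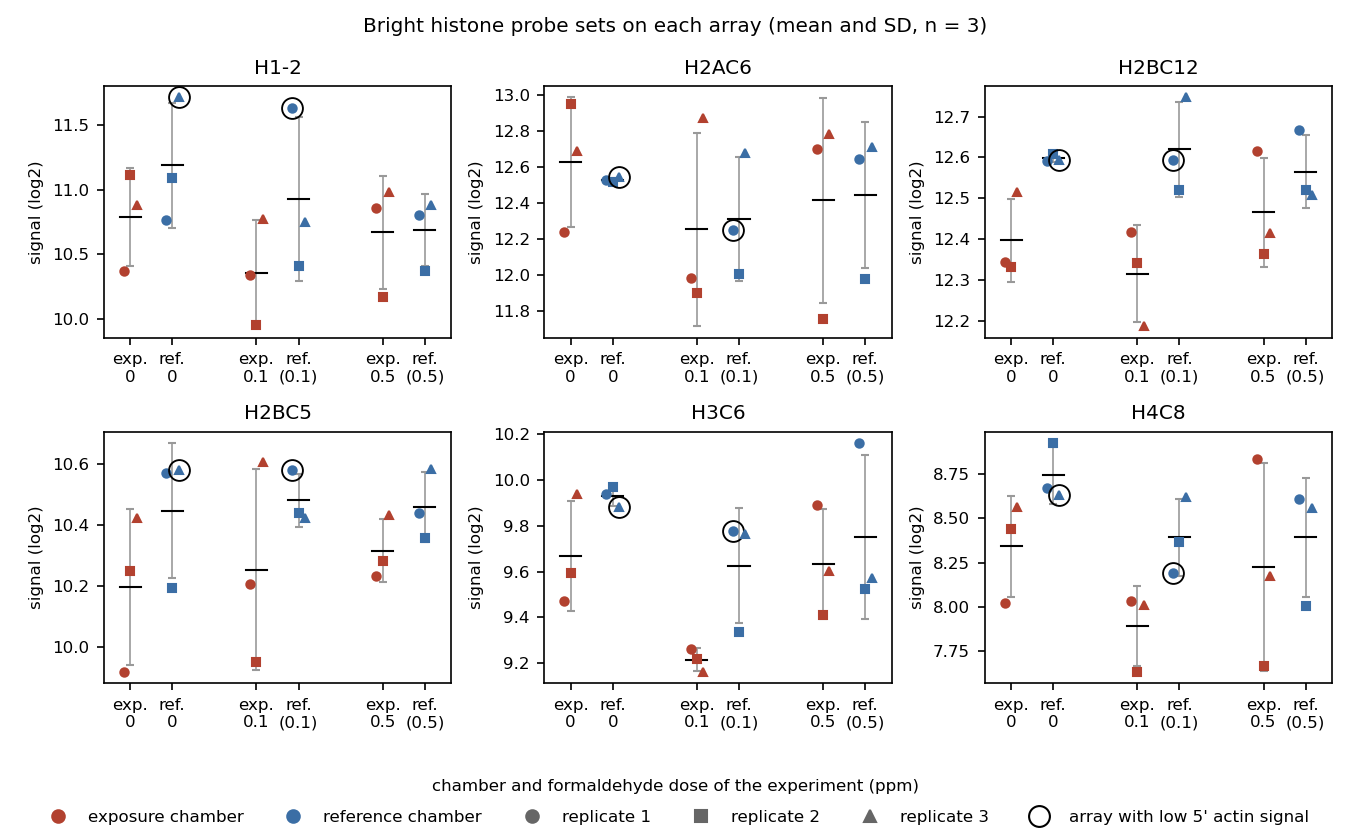
Log2 signal on each array (vertical axis, scale differs between panels) of 6 bright histone genes by chamber and dose (horizontal axis; exposure chamber in red left of its reference chamber in blue; line and bars, mean and SD of 3 arrays; symbols, replicates; rings, the arrays of low 5' actin signal). H2BC12 at 0 ppm lies between 12.33 and 12.51 in the exposure chamber, below all 3 reference-chamber arrays, and H2AC6 lies at or below 12.005 in both chambers of 0.1 ppm replicate 2 and of 0.5 ppm replicate 2.

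Among the other bright probe sets, H2BC12L, an H2B-like gene on chromosome 21, had log2 signals of 9.86, 10.004 and 10.11 in the exposure chamber at 0 ppm, against 10.52, 10.31 and 10.38 in the reference chamber. The groups do not overlap, and the log2 difference was -0.41 (SE 0.25, adjusted p = 0.880 in limma). H2AC25, an H2A gene, had 8.06, 8.48 and 8.25 in the exposure chamber at 0 ppm, against 8.70, 8.49 and 8.64 in the reference chamber (log2 difference -0.35, SE 0.26). H2AC17, another H2A gene, had 5.82, 6.01 and 5.43 at 0.1 ppm, against 7.08, 6.11 and 6.82 in the reference chamber, where the array at 7.08 is one of low 5' actin. H1-10 had 7.78, 7.78 and 7.89 at 0.5 ppm, against 7.65, 7.71 and 7.77 in the reference chamber (log2 difference 0.11, SE 0.21), a higher signal in all 3 exposed cultures.

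Small differences in 1 direction were common among the bright probe sets. At 0 ppm the exposure chamber was lower in 17 of 21, with a median log2 difference of -0.26, against -0.044 over all bright probe sets. At 0.1 ppm it was lower in 19 of 21 (median -0.30, against -0.057) and at 0.5 ppm in 16 of 21 (median -0.11, against -0.040). After quantile normalization the medians were -0.23, -0.26 and -0.081, with 15, 18 and 16 of 21 lower. Without the array of low actin signal the exposure chamber was lower in 18 of 21 at 0 ppm (median -0.23, against -0.030 over all bright probe sets) and in 18 of 21 at 0.1 ppm (median -0.31, against -0.039). Neither chamber held formaldehyde at 0 ppm. The contrast of chamber differences had bright medians of -0.026 at 0.1 ppm, 0.00060 after quantile normalization, and 0.11 at 0.5 ppm. Over all bright probe sets they were -0.0019 at 0.1 ppm and -0.0072 at 0.5 ppm. The contrast was negative in 13 of 21 at 0.1 ppm and positive in 17 of 21 at 0.5 ppm. Across doses in the exposure chamber 17 of 21 were lower at 0.1 than at 0 ppm (median -0.18, against -0.023). At 0.5 against 0 ppm 14 of 21 were lower (median -0.040, against -0.027).

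Groups that did not overlap were counted over all 58 probe sets. At 0 ppm 8 did not overlap and all 8 were lower in the exposure chamber, where 6.31% of all probe sets were so: H2BC12, H2BC12L, H4C8, H2AC25, H2AC17, H1-3, H3C8 and H2BC1. At 0 ppm 10% of all probe sets did not overlap in either direction. At 0.1 ppm 6 did not overlap, all lower (7.87% of all in either direction, 5% lower): H2BC12, H3C6, H4C8, H2AC17, H4C13 and H2BC17. At 0.5 ppm 5 did not overlap (6.75% of all): 4 were lower (4.19% of all), the 4 that passed the test, and H1-10 was higher. H2BC17 was named after its values were seen. For 0.1 against 0 ppm 5 did not overlap (8.57% of all), and for 0.5 against 0 ppm 1, H2BC15 (8.55% of all).

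Taking all 9 experiments together, with the experiment as a block, is an analysis added after the data were seen. The exposure chamber was lower in 7 of 58 histone probe sets at an unadjusted p under 0.05 and higher in 0, against 7.48% of all probe sets lower and 10% in either direction, and 0 passed after adjustment in limma (lowest adjusted p = 0.494). Of the 7, 6 were bright: both probe sets of H4C8 (-0.36, SE 0.13, and -0.38, SE 0.16), H2AC17 (-0.55, SE 0.19), H2BC6 (-0.35, SE 0.15), H2BC12L (-0.30, SE 0.12) and H3C6 (-0.26, SE 0.12). The dim one was H3C8 (-0.74, SE 0.21), lower in 8 of 9 experiments. In a fit of the 27337 bright probe sets alone, 3870 passed lower and 5122 in either direction, with 9 of the histone probe sets lower. The probe set of H2BC12L has the suffix x_at. H2BC12 had a difference of -0.20 (SE 0.10, adjusted p = 0.508) and passed at an unadjusted p under 0.05 after quantile normalization (-0.24), with 32 added, among bright probe sets alone and with a trend in eBayes.

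Over the 9 experiments 17 of 21 bright histone probe sets (81.0%) were lower in the exposure chamber, against 56.9% of all bright probe sets, with medians of -0.21 and -0.049. The probe sets share arrays and partly sequence, so this count is not one of independent measurements. After quantile normalization 4 passed lower and 1 higher, against 2529 lower of 4688 probe sets that passed in all, where 4087 of 5483 were lower before it. Without both experiments that hold an array of low actin signal, 6 passed lower and the bright median was -0.21. Without the 0 ppm experiment, replicate 1, in which 19 of 21 were lower, 2 passed and the bright median was -0.20. The 4 bright probe sets with higher means in the exposure chamber were those of H2AC6 (0.0035), H2BC21 (0.035), H1-10 (0.050) and H1-4 (0.0024).

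**Figure D4:**
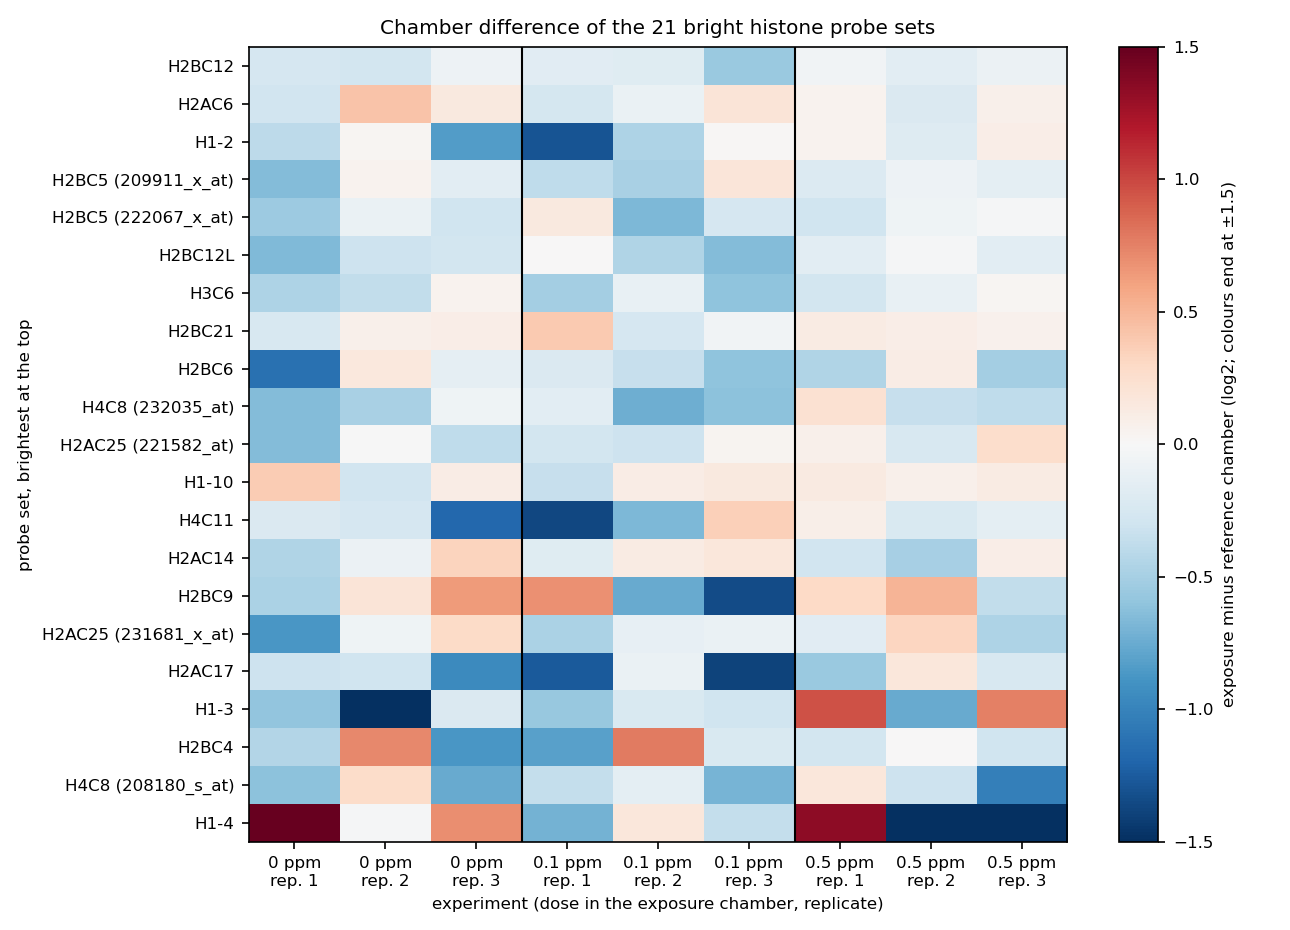
Exposure minus reference chamber (log2, colour) of the 21 bright histone probe sets (rows, brightest at the top) in the 9 experiments (columns, by dose and replicate). Blue, lower in the exposure chamber, prevails in the row of H2BC12 in all 9 columns and in the column of the 0 ppm experiment, replicate 1.

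Differences between experiments were tested over both chambers. At an unadjusted p under 0.05 in limma's F test 4 of 58 histone probe sets passed, against 9.61% of all probe sets, and 0 after adjustment: H3C7, H3C11, H2AC6 and a probe set of H1-7. H2AC6 was the 1 bright probe set of these (adjusted p = 0.447), with experiment means between 11.87 and 12.78, while those of H2BC12 lay between 12.43 and 12.64. It did not pass without 0.1 ppm replicate 2 or without 0.5 ppm replicate 2. H3C7, H3C11 and H1-7 were named after their values were seen.

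Since replication-dependent histone genes are transcribed mainly in S phase, the experiments were set beside a list of 40 genes of S phase and DNA replication, of which 39 were measured. The list was written with earlier results on the cell cycle in these data known. Of its genes 0 passed an unadjusted p under 0.05 in limma in any of the 7 comparisons. The median of the list's signals, each centred on its mean over the arrays, was 0.45 in the 0.1 ppm experiment, replicate 2, and 0.27 in the 0.5 ppm experiment, replicate 2, and between -0.31 and 0.16 in the other 7.

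H2AC6 ran against the list: its experiment means were 11.95 and 11.87 in those 2 experiments and 12.12 to 12.78 in the others. Over the 9 experiments Pearson's r was -0.93 (exact permutation p = 0.00071, two-sided, adjusted p = 0.141 over all probe sets) and Spearman's rho -0.85 (exact permutation p = 0.0061, adjusted p = 0.287). Without the 2 experiments farthest from the list's median, the replicates 2 just named, r was -0.86. Within the exposure-chamber arrays r was -0.86 and within the reference-chamber arrays -0.94, over the same 9 experiments. Of the other bright probe sets of the array 0.293% had an r as low or lower.

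The relation was computed for the 15 genes with the brightest probe sets of their type. Of these 5 had an exact permutation p under 0.05 and all 5 a negative r, against 10.3% of all probe sets past it in either direction and 5.96% with a negative r. Those shares include the dim probe sets. Among bright probe sets outside the S phase list, 1.86%, 5.11%, 6.49% and 6.73% had an r at or below that of H4C8, H3C6, H1-2 and H2AC25. H4C8 had an r of -0.83 (exact permutation p = 0.0063, adjusted p = 0.269) and a rho of -0.75 (exact permutation p = 0.025, adjusted p = 0.432), and r was -0.67 without the 2 experiments. For H3C6 (r = -0.73, rho = -0.55), H1-2 (r = -0.69, rho = -0.43) and H2AC25 (r = -0.69, rho = -0.53) r was -0.43, -0.043 and -0.22 without them, so these rest on those experiments. The r of some of the 5 differed between the chambers, a difference that was not tested. Within the exposure-chamber arrays r was -0.92 for H1-2 and -0.80 for H2AC25, and within the reference-chamber arrays -0.17 and -0.23. In the exposure and the reference chamber H4C8 had -0.87 and -0.62 and H3C6 -0.64 and -0.68. Both arrays of low 5' actin signal, on which H1-2 was highest, are reference-chamber arrays. Their part in these r was not tested. Over the 9 experiments the exact permutation p of H3C6, H1-2 and H2AC25 was 0.028, 0.041 and 0.041 for r, with adjusted p of 0.414, 0.458 and 0.460. For rho it was 0.13, 0.25 and 0.15, with adjusted p of 0.625, 0.721 and 0.639. H1-10, a linker histone variant that is not tied to replication, had an r of 0.63 (exact permutation p = 0.068, adjusted p = 0.535) and a rho of 0.58 (exact permutation p = 0.11, adjusted p = 0.596). A positive r was not particular to H1-10. Genes of the chromosome 6 cluster had it too: H1-3 (r = 0.58, rho = 0.53) and the dim H3C2 (0.55 and 0.67), H4C5 (0.27 and 0.20) and H3C3 (0.21 and 0.10). The r of all 21 bright probe sets was negative in 17, with a median of -0.49, against 47.5% negative and a median of 0.033 over the bright probe sets outside the list. With each value centred on the mean of its dose, r was -0.95 for H2AC6, -0.87 for H4C8, -0.78 for H2AC25, -0.73 for H1-2, -0.72 for H3C6 and 0.64 for H1-10 over the same 9 experiments. Permuting the experiments within doses alone, in an alternative added after the data were seen, gave an exact permutation p of 0.019 for H2AC6 and 0.0093 for H4C8 (adjusted p = 0.601 and 0.585 over all probe sets), and of 0.11, 0.065 and 0.12 for H2AC25, H1-2 and H3C6. Over the 3 experiments of each dose r of H2AC6 was -0.89 at 0 ppm, -0.97 at 0.1 ppm and -0.94 at 0.5 ppm. An r over 3 experiments says little by itself: it was 0.80, -0.98 and -0.22 for H2AC14 and -0.997, 0.86 and 0.39 for H3C2.

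**Figure D5:**
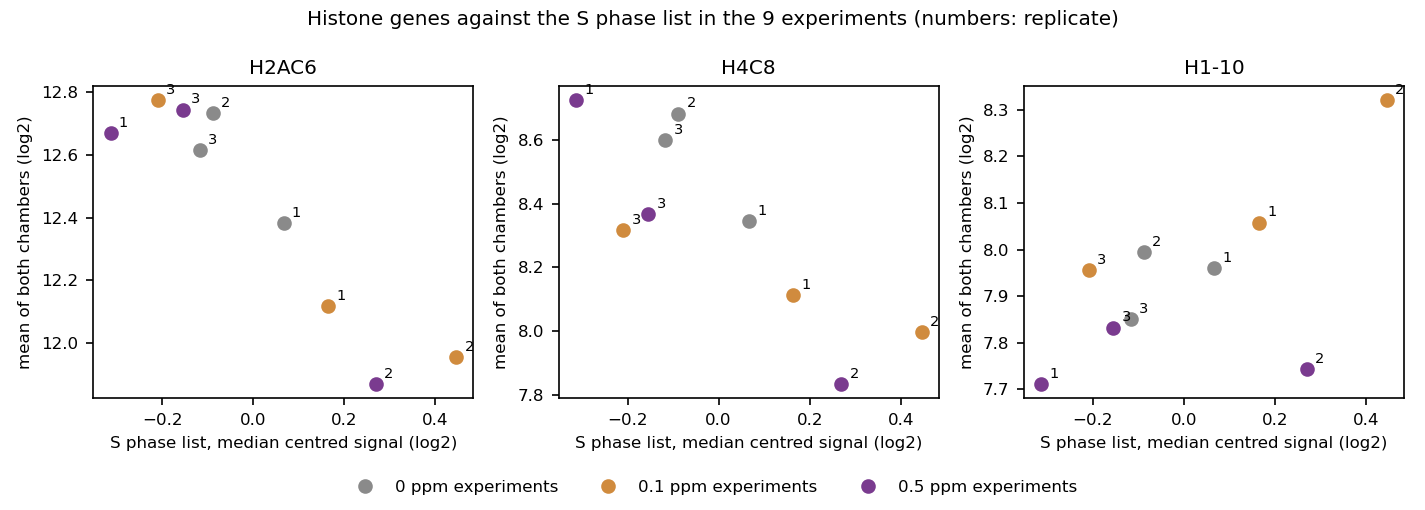
Mean log2 signal of both chambers (vertical axis, scale differs between panels) of H2AC6, H4C8 and H1-10 against the median centred log2 signal of the S phase list (horizontal axis) in the 9 experiments (points; colour, dose; number, replicate). H2AC6 and H4C8 are lowest in the replicates 2 of 0.1 and 0.5 ppm, at the right, with r of -0.93 and -0.83.

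Of the genes also described as polyadenylated RNA, 7 of 8 were measured, 6 of them bright, and 0 passed in any of the 7 comparisons at an unadjusted p under 0.05 in limma. Their median log2 difference between the chambers was -0.20 at 0 ppm, -0.23 at 0.1 ppm and -0.028 at 0.5 ppm. It was -0.071, -0.073 and -0.042 over all probe sets and -0.044, -0.057 and -0.040 over all bright ones. H1-2, H2AC6, H2BC5, H2BC12 and H2BC21 are also among the bright histone probe sets counted above, so this is no separate result. Of the replication-independent variants 8 of 10 were measured, all bright, and 0 passed in any of these comparisons. H2AZ1, the H2A.Z of promoters, had log2 signals of 13.26, 13.27 and 13.10 in the exposure chamber at 0 ppm, against 13.01, 13.10 and 12.95 in the reference chamber. It was higher in the exposure chamber in 8 of 9 experiments (log2 difference 0.15, SE 0.099, adjusted p = 0.566 in limma). CENPA, the H3 variant of centromeres, passed an unadjusted p under 0.05 for differences between experiments in limma's F test. It was named after its values were seen, as H2AZ1 was.

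The genes that make and handle histone messages and proteins were counted the same way. Of 16 measured genes for the transcription and 3' end processing of histone messages, 1 passed: NCBP2, a subunit of the nuclear cap-binding complex, was lower at 0.1 than at 0 ppm in the exposure chamber (log2 difference -0.64, SE 0.25, adjusted p = 1.00 in limma), where 4.47% of all probe sets passed, and 0 of the 16 passed in the other 6 comparisons. Of 25 histone chaperones and loading factors, 1 passed: SRCAP, the remodeler that loads H2A.Z, was lower at 0.5 than at 0 ppm in the exposure chamber (log2 difference -1.45, SE 0.32, adjusted p = 0.703), and its chamber difference changed by -2.99 at 0.5 ppm (SE 0.96, adjusted p = 1.00). Of all probe sets 4.56% and 3.69% passed in these comparisons. The probe set of SRCAP was dim, and 0 of the 25 passed in the other 5 comparisons.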

How the data were processed

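RNA of 18 A549 ALI cultures was hybridised to Affymetrix HG-U133 Plus 2.0 arrays. The deposited values are intensity values that the authors computed with MAS5, each array scaled to a trimmed mean of 500; median signals ranged from 26.7 to 34.0, and the number of arrays limits the precision. Log2 signals (pseudocount 0) of all 54675 probe sets were compared with limma (version 3.58.1, R 4.3.3, with lmFit and eBayes). The threshold was the study's unadjusted p under 0.05, with Benjamini-Hochberg adjustment over all probe sets beside it. A comparison of group with group was fitted on its own 3 against 3 arrays. Contrasts of chamber differences were fitted on the arrays of both doses and both chambers, and the 9 experiments on all 18 arrays. Exact permutation tests used Python 3.11.15 with all orders of 9 experiments. Genes were named that passed in a comparison on their brightest probe set or had 1 of the 3 brightest probe sets of their type. The members and gene lists were chosen with earlier results of these data known. The labels give 1 replicate number to both chambers of an experiment, and deviations from the group means correlated between same-numbered chambers at 0.31, 0.0095 and 0.32 (0 ppm), 0.049, 0.49 and 0.0086 (0.1 ppm) and 0.46, 0.46 and 0.41 (0.5 ppm). For 0 ppm replicate 2 and 0.1 ppm replicate 3 a chamber of another number correlated better, at 0.037 and 0.28. Replicates are separate experiments with 1 cell line, and p-values measure only the spread between these samples. The fits were tested on simulated data. Alternatives were quantile normalization, 32 added to each signal, bright probe sets alone, a trend in eBayes, all groups in 1 fit, the replicate block, and leaving out each array.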

Additional observations from a re-analysis of the deposited data

Results flagged for a closer look

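The chamber difference of H2BC1 differed between 0.5 and 0 ppm in a test of the difference itself, by 3.53 on the log2 scale (SE 1.22, adjusted p = 1.00 in limma): it was 1.07 at 0.5 ppm and -2.46 at 0 ppm. With 32 added to each signal the value was 0.16 and did not pass.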

How the results depend on the processing

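The counts of histone probe sets past the unadjusted threshold are small and moved with most settings. Over the named genes in the comparisons they passed in, and H2BC12 over the 9 experiments, 89 values under an alternative kept direction and call, 4 gained a call, 70 lost it and 0 changed direction. A trend in eBayes, all groups in 1 fit and the replicate block leave the log2 difference as it was, so direction could not change under them. Against main counts of 2, 1, 4, 3 and 3 (chambers at 0, 0.1 and 0.5 ppm, then 0.1 and 0.5 against 0 ppm) and 0 and 1 for the chamber differences at 0.1 and 0.5 ppm, 32 added to each signal gave 6 between the chambers at 0.1 ppm, 2 at 0.5 ppm, 2 lower and 0 higher for 0.1 against 0 ppm (1 and 2 without it), 0 for 0.5 against 0 ppm and 0 for the chamber difference at 0.5 ppm. Over all probe sets 32 added gave 1025 lower and 518 higher between the chambers at 0.1 ppm, against 1343 and 843 without it. Bright probe sets alone gave 0 for the chambers at 0 and 0.5 ppm, both doses against 0 ppm and the chamber difference at 0.5 ppm. A trend in eBayes gave 0 at 0.1 ppm, 1 at 0.5 ppm and 2 for the chamber difference at 0.5 ppm, and quantile normalization gave 2 at 0.5 ppm. All groups in 1 fit gave 1, 3, 1, 1, 5, 1 and 2. With the experiment as a replicate block the counts were 4, 1 and 3 between the chambers and 2 and 3 for the chamber differences, and of the named genes H4C13 at 0.1 ppm and H1-9P and H1-6 at 0.5 ppm lost their call. Across doses the replicate number joins unrelated experiments, with correlations between same-numbered arrays of -0.17 to 0.28, so that a block of the numbers, which gave 3 and 2, is no paired analysis.

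Leaving out 1 array gave 2 to 4 between the chambers at 0 ppm (4 without reference chamber replicate 2), 0 to 3 at 0.1 ppm (0 without exposure chamber replicate 1 or reference chamber replicate 3), 0 to 5 at 0.5 ppm (0 without reference chamber replicate 1), 2 to 6 for 0.1 against 0 ppm (6 without 0.1 ppm replicate 3), 0 to 8 for 0.5 against 0 ppm (0 without 0 ppm replicate 2, 8 without 0.5 ppm replicate 1), and 0 to 2 and 1 to 3 for the chamber differences. Over the 9 experiments, 7 probe sets became 12 with 32 added, 11 with the trend, 5 after quantile normalization, and 2 to 7 without 1 experiment (2 without 0 ppm replicate 1). Over all probe sets 5483 became 7646 with 32 added, 7317 with the trend and 4688 after quantile normalization. The 4 that differed between experiments became 7 with 32 added, 2 among bright probe sets, 9 without both experiments with a low actin array, and 2 to 8 without 1 experiment (2 without 0.1 ppm replicate 2, 8 without 0.1 ppm replicate 1). H2AC6 did not pass there without 0.1 ppm replicate 2 or 0.5 ppm replicate 2. Cultures of 3 a group and log2 SDs of dim probe sets above 1 limit what these arrays can show.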
